A study of Saccharomyces cerevisiae with 8 samples.

Results

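The proteasome is the large protease that degrades proteins tagged with ubiquitin. The genes described here are 32 of its subunit genes together with RPN4, the transcription factor that activates them, 33 genes chosen by name. All 33 matched a probe set on the array through the platform's gene table, and they belong to the 5412 S. cerevisiae genes that were tested. By position in the particle they comprise 7 alpha-ring genes, 7 beta-ring genes, 10 genes of the base, 8 genes of the lid and RPN4.

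Cells of the S. cerevisiae strain DBY7286 had been grown in defined-iron SD minimal medium, with ferrous ammonium sulfate at 10 µM in 4 independent cultures (low iron) and at 300 µM in 4 others (high iron). Both groups shared everything else in the medium, including 1 mM Ferrozine, which chelates ferrous iron, 1 µM copper sulfate and 25 mM MES at pH 6.1. Cultures were shaken at 30 °C for around 18 h until they reached an A600 of 0.5. RNA of each culture went onto 1 Affymetrix yeast array, in a single strain at a single point of growth, so the values describe mRNA and not protein or proteolytic activity.

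The core particle is a barrel of stacked rings. Alpha subunits form the outer rings and gate the entry, and beta subunits form the inner rings and hold the protease sites. The regulatory particle caps the barrel with a base, whose ring of ATPases (RPT genes) unfolds substrates, and a lid that removes ubiquitin. In yeast, Rpn4 protein binds a shared element upstream of proteasome genes and is itself destroyed by the proteasome, so that a drop in proteasome activity is followed by more Rpn4 and more subunit mRNA.

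The deposited signals are MAS5 values, scaled so that the trimmed mean is 500.2 for each of the 8 arrays, and the brightest probe set of an array read 6597 to 7706. Subunit genes read 1583 to 4035, below that ceiling and above the array's background on all 8 arrays. The group labels were checked on FET3, the ferroxidase gene of high-affinity iron uptake, which read 4287.9 to 5199.5 in low iron and 1847.3 to 2176.7 in high iron. The median of 17 ribosomal RNA control probe sets was 2682, 2567, 3371 and 3707 on low-iron arrays 1 to 4 and 3744 to 4321 in high iron (exact permutation p = 0.0286, two-sided, which is the lowest value that 4 against 4 can give). The ratio of 3′ to 5′ ACT1 control signal was 1.197 ± 0.0456 in low iron and 1.257 ± 0.0368 in high iron (SD, n = 4; exact permutation p = 0.114). Neither p was adjusted for the pair of measures, and the part of either in the results was not tested.

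Proteasome subunit mRNA stayed within a narrow range between low and high iron, while RPN4 mRNA fell. Of the 33 genes, 5 rose and 2 fell in low iron (limma, adjusted p under 0.05), 21.2% against 39.4% of all genes tested. The 5 that rose, PRE8, PRE3, RPT1, RPT6 and RPN10, make 15.2% of the genes, beside 16.8% of all genes higher in low iron. The 2 that fell, RPT2 and RPN4, make 6.06%, beside 22.7% of all genes lower in low iron. Quantile normalization gave 3 higher and 5 lower members, and leaving out low-iron arrays 1 and 2 gave 1 higher and 2 lower. Over the whole table the split of 907 higher and 1226 lower moved with the scaling: quantile normalization gave 1181 and 1091, and median centring 1138 and 1072. The log2 change of the 32 subunit genes ran from -0.22 to 0.24, with a median of 0.038 and a standard deviation of 0.11 over genes. Over all tested genes the median was -0.018 and the standard deviation 0.49. All tested genes include many dimmer than the subunit genes, and no comparison with genes of like signal was made.

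A missed threshold does not show equal expression, so the width of the intervals matters. The 95% interval of the log2 change lay inside -0.5 to 0.5 for all 32 subunit genes and not for RPN4, where 68.0% of all tested genes lay inside it. The interval that reached lowest among subunits was that of RPN8, to -0.39, and the one that reached highest was that of RPN10, to 0.36. The median standard error of the 33 genes was 0.046, smaller than the 0.079 over all tested genes. The median absolute log2 change was 0.063 for the 33 genes and 0.18 over all genes. The 33 genes read 943 to 4035, above the trimmed mean of 500.2 of the arrays. The part of signal level in these differences from all genes was not tested. Values of the 4 low-iron cultures lay wholly above those of the 4 high-iron cultures for 5 genes (16.8% of all genes did so) and wholly below for 4 genes (21.8% of all genes did so). The first 5 are the genes that rose, and the other 4 are RPT2, RPN4, RPN2 and RPN13.

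**Figure D1:**
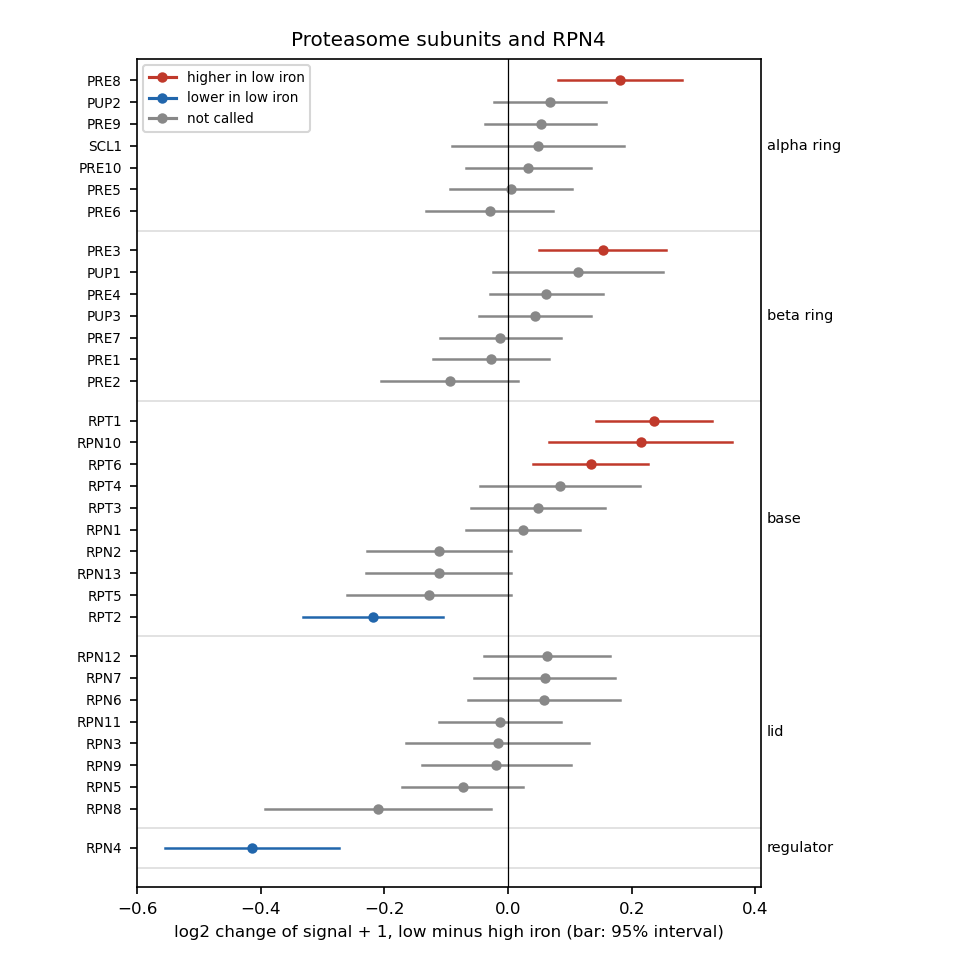
Log2 change of each of the 33 genes, low minus high iron, with its 95% interval from limma, by position in the particle. Points of the subunit genes lie between -0.22 and 0.24, 5 of them called higher (red) and RPT2 called lower (blue), and RPN4 stands at -0.41.

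RPN4 (YDL020C) fell in low iron. It read 1039, 1014, 1078 and 943 on the low-iron arrays and 1461, 1304, 1280 and 1386 on the high-iron arrays. Every low-iron value lay below every high-iron value. The means were 1018 ± 56.9 and 1358 ± 82.7 (SD, n = 4), 1.33-fold lower in low iron, and the log2 change was -0.41 ± 0.0635 (SE), for which limma gave an adjusted p of 6.02e-04, and a 95% interval from -0.56 to -0.27. It kept its call in all 19 refits tried, at a log2 change of -0.44 to -0.38.

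Set against the subunit genes of the same array, RPN4 was lower in low iron by a similar amount. The deviation of its log2 signal from its high-iron mean, minus the mean deviation of the 32 subunit genes, was -0.44, -0.44, -0.33 and -0.53 on low-iron arrays 1 to 4. On the high-iron arrays it was 0.10, -0.067, -0.070 and 0.035. This quantity is a description and was not tested. The mean deviation of the 32 subunit genes themselves was 0.053, 0.021, 0.00099 and 0.0011 on the low-iron arrays, where the mean over all tested genes was -0.079 to -0.039.

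Alpha-ring genes showed 1 rise and no fall among 7, with a median log2 change of 0.048. The 1 rise makes 14.3%, near the 16.8% of all tested genes higher in low iron, where 22.7% were lower. PRE8 (YML092C), an alpha subunit, read 2548, 2619, 2391 and 2577 in low iron and 2238, 2177, 2221 and 2302 in high iron. Its groups did not overlap, and it rose 1.13-fold (log2 change 0.18 ± 0.0450, SE; limma adjusted p = 0.00947). Without low-iron arrays 1 and 2 together its log2 change was 0.15 and the adjusted p 0.0509.

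PUP2 (YGR253C), the alpha gene next in adjusted p, read 2991.5, 3013, 2881 and 3039.5 in low iron and 2764, 2787, 2952 and 2875 in high iron. Its groups overlapped through low-iron array 3 and high-iron array 3, and its log2 change of 0.068 did not pass (adjusted p = 0.213). PRE6 (YOL038W), the alpha gene with the lowest change, read 3441, 3149.5, 3093.5 and 3346 in low iron and 3264, 3393, 3410 and 3224 in high iron. The 2 groups of PRE6 overlapped widely, with a log2 change of -0.030 (adjusted p = 0.638, 95% interval -0.13 to 0.073). SCL1, PRE9, PRE5 and PRE10 had log2 changes of 0.048, 0.053, 0.0042 and 0.033, and none passed. PRE9 encodes the alpha subunit that yeast can live without.

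Beta-ring genes likewise showed 1 rise and no fall among 7, with a median log2 change of 0.043. That is again 14.3% higher, beside 16.8% of all tested genes higher and 22.7% lower. Of the genes of the 3 proteolytic subunits, PRE3, PUP1 and PRE2, PRE3 passed the test, and differences between these genes were not tested. PRE3 (YJL001W), whose product carries the caspase-like site, read 3275, 3323, 3002 and 3005 in low iron and 2879, 2816, 2811 and 2818 in high iron. No low-iron value fell to the high-iron range, and it rose 1.11-fold (log2 change 0.15 ± 0.0464, SE; limma adjusted p = 0.0247). That rise was larger on low-iron arrays 1 and 2, which also had the lowest ribosomal RNA control signal; the part of that signal in the result was not tested. Without those 2 arrays the log2 change of PRE3 was 0.085 (adjusted p = 0.183).

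PRE2 (YPR103W), whose product carries the chymotrypsin-like site, read 3838, 3433, 3625 and 3550 in low iron and 3597, 4035, 3857 and 3937 in high iron. The groups overlapped, since low-iron array 1 was high and high-iron array 1 was low, and the log2 change of -0.095 did not pass (adjusted p = 0.156). It passed under quantile normalization, at -0.15 (adjusted p = 0.0143). PUP1, of the trypsin-like site, read 2704, 2481, 2291 and 2290 in low iron and 2281, 2311, 2300 and 2120 in high iron, with a log2 change of 0.11 (adjusted p = 0.169). Its low-iron arrays 1 and 2 stood above all others and its arrays 3 and 4 lay among the high-iron values. The structural beta genes PUP3, PRE1, PRE7 and PRE4 had log2 changes of 0.043, -0.028, -0.013 and 0.062, and none passed.

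**Figure D2:**
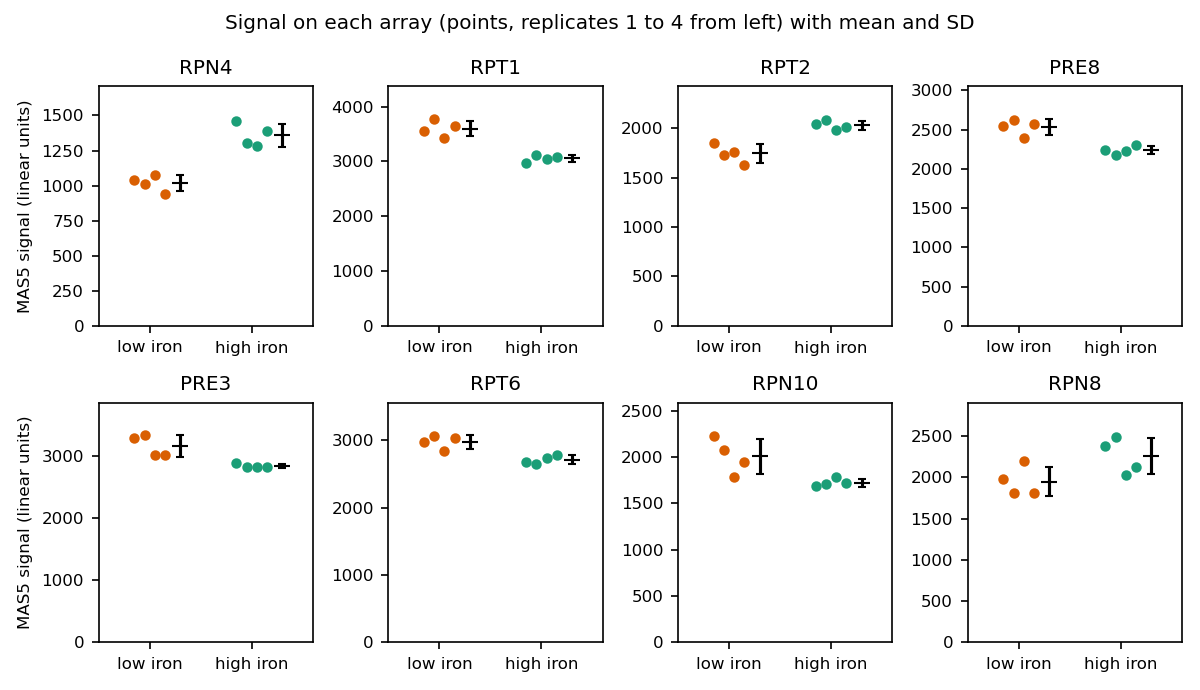
MAS5 signal (linear units, axis from 0) of 8 genes on each array, with the mean and SD of 4 cultures beside the points. RPN4 and RPT2 are lower in low iron and RPT1, PRE8, PRE3, RPT6 and RPN10 higher with no overlap, while the groups of RPN8 overlap.

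In the base 3 of 10 genes rose (30.0%) and 1 fell (10.0%), 40.0% called beside 39.4% of all tested genes. Among its 6 ATPase genes 2 rose (33.3%) and 1 fell (16.7%). Of all tested genes 16.8% were higher and 22.7% lower. RPT1 (YKL145W) read 3554, 3763, 3425 and 3653 in low iron and 2964, 3123, 3041 and 3086 in high iron. Every low-iron value lay well above the highest high-iron value, and the gene rose 1.18-fold (log2 change 0.24 ± 0.0423, SE; limma adjusted p = 0.00153). RPT2 (YDL007W), whose product opens the gate of the alpha ring, read 1854, 1733, 1762 and 1626 in low iron and 2040, 2086.5, 1976 and 2007 in high iron. Its groups did not overlap in the opposite direction, and it fell 1.16-fold (log2 change -0.22 ± 0.0512, SE; adjusted p = 0.00696). RPT1 and RPT2 kept their calls in all 19 refits, with log2 changes of 0.19 to 0.27 and -0.26 to -0.18. Their products form a pair within the ATPase ring.

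RPT6 (YGL048C) read 2974, 3063, 2835 and 3030 in low iron and 2680, 2643, 2736 and 2788 in high iron. The separation was small, and its 1.10-fold rise (log2 change 0.13 ± 0.0420, SE; limma adjusted p = 0.0289) lost its call in 9 of 19 refits, where the highest adjusted p was 0.122. RPT3, RPT4 and RPT5 had log2 changes of 0.048, 0.084 and -0.13 and did not pass. RPT5 read 2605 and 2628 on high-iron arrays 1 and 2 and 2247 and 2311 on arrays 3 and 4, so the high-iron cultures differed among themselves more than the low-iron ones, which read 2172 to 2305. RPT5 passed under quantile normalization, at -0.17 (adjusted p = 0.0364).

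Among the non-ATPase genes of the base, RPN10 and RPN13 encode ubiquitin receptors, and RPN1 and RPN2 encode the large scaffold subunits. RPN10 (YHR200W) read 2224, 2075.5, 1785 and 1944 in low iron and 1684, 1714, 1784 and 1716 in high iron. Low-iron array 3 lay barely above high-iron array 3, and the gene rose 1.16-fold (log2 change 0.21 ± 0.0666, SE; limma adjusted p = 0.0271). The call was lost in 6 of 19 refits, and without low-iron arrays 1 and 2 the log2 change was 0.11 (adjusted p = 0.151). RPN13 read 1583 to 1715 in low iron and 1717 to 1925 in high iron, and RPN2 1617 to 1784 and 1788 to 1917.5. Both gave non-overlapping groups but missed the threshold over all genes, with log2 changes of -0.11 each (adjusted p = 0.113 for both). RPN1 had a log2 change of 0.024.

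None of the 8 lid genes passed, beside 39.4% of all tested genes. Their median log2 change was -0.015. RPN8 (YOR261C), the partner of the deubiquitinating subunit, read 1979, 1815, 2194 and 1813 in low iron and 2381, 2494, 2030 and 2127 in high iron. Low-iron array 3 exceeded high-iron arrays 3 and 4, and the log2 change of -0.21 ± 0.0824 (SE) did not pass (limma adjusted p = 0.0659). Its size was like that of RPT2, with a wider spread in both groups. It passed under quantile normalization (-0.24, adjusted p = 0.0389), without low-iron array 3 (-0.27, 0.0199) and without high-iron array 3 (-0.26, 0.0422).

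RPN5 (YDL147W), a structural lid gene, read 2028, 1955, 2053.5 and 1948 in low iron and 2148, 2103, 2023 and 2129 in high iron. The groups overlapped only through high-iron array 3, and the log2 change was -0.074 (adjusted p = 0.206). RPN12 (YFR052W), the last subunit to join the lid, read 2486, 2548, 2604 and 2499 in low iron and 2393, 2296, 2481 and 2540 in high iron. It had the highest lid change, 0.063 (adjusted p = 0.301), with overlapping groups. RPN11, the deubiquitinating enzyme itself, read 2132 to 2344 in low iron and 2228 to 2297 in high iron, a log2 change of -0.014 with a 95% interval from -0.11 to 0.085. RPN3, RPN6, RPN7 and RPN9 had log2 changes of -0.017, 0.058, 0.059 and -0.019.

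By array, the averages of the rings and of the lid did not order alike. The mean log2 deviation from the high-iron mean was 0.081, 0.058, 0.0096 and 0.055 over the alpha ring and 0.071, 0.039, -0.0057 and 0.031 over the beta ring on low-iron arrays 1 to 4. Over the base it was 0.071, 0.029, -0.024 and -0.010, and over the lid -0.0091, -0.039, 0.030 and -0.058. Low-iron array 3 was therefore the lowest of its group over both rings and the base and the highest over the lid. Low-iron arrays 1 and 2 both read above arrays 3 and 4 for 9 of the 33 genes (27.3%), and both below for 4 (12.1%). Over all tested genes these shares were 33.7% and 22.7%. These shares describe the arrays and were not tested.

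**Figure D3:**
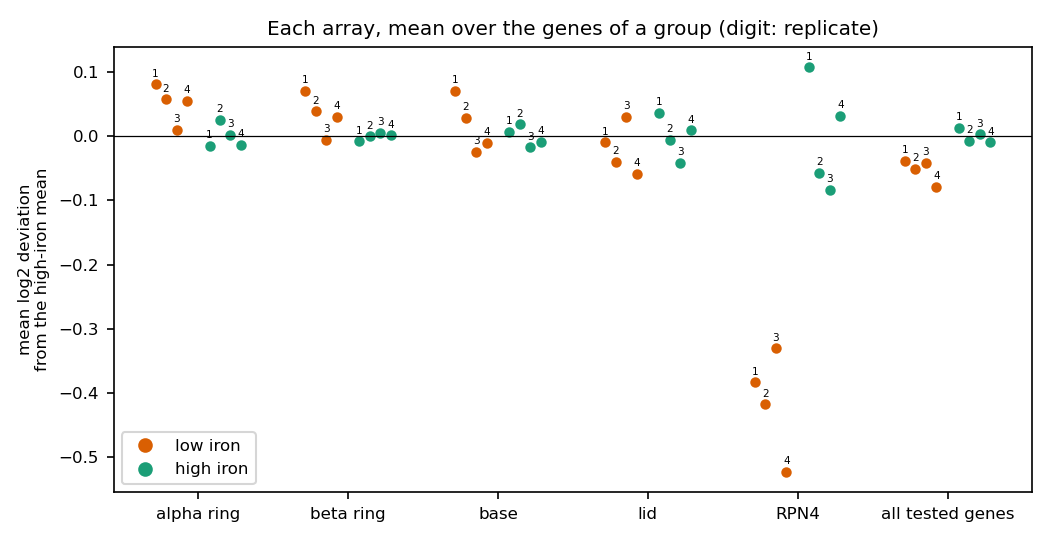
Mean log2 deviation of each array from the high-iron mean, over the genes of each part of the particle, for RPN4 and over all tested genes, with the replicate number above each point. The 4 parts lie between -0.058 and 0.081 on every array, whereas RPN4 lies between -0.52 and -0.33 in low iron.

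Of 6 genes that act on RPN4 or its product 4 rose and 1 fell in low iron (66.7% and 16.7%, beside 16.8% and 22.7% of all tested genes), with a median log2 change of 0.32. The count of 4 held with any single array left out. UBR2 (YLR024C), the ubiquitin ligase that tags Rpn4 protein, read 140, 184, 152 and 166 in low iron and 105, 104, 103 and 112 in high iron. All low-iron values lay above, and the gene rose (log2 change 0.59 ± 0.0936, SE; limma adjusted p = 7.67e-04). At this low signal the log2 change of UBR2 ran from 0.40 to 0.70 over the 19 refits. MUB1, the partner of Ubr2, went the other way, at 690 ± 21.9 in low iron and 780 ± 51.0 in high iron (SD, n = 4; log2 change -0.17, adjusted p = 0.0464). MUB1 lost its call in 12 of 19 refits, where the highest adjusted p was 0.132.

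The other 4 encode transcription factors that act at the RPN4 promoter. HSF1, the heat shock factor, rose by 0.43 on the log2 scale, from 360 ± 9.10 to 485 ± 37.7 (SD, n = 4; limma adjusted p = 8.3e-04). PDR1, the regulator of drug pumps, rose by 0.39, from 548 ± 31.9 to 718 ± 72.4 (adjusted p = 0.00383). YAP1, the oxidative stress factor, rose by 0.26 (adjusted p = 0.0105). PDR3, the relative of PDR1, had a log2 change of 0.11 and did not pass (adjusted p = 0.326). UBR2, HSF1, PDR1 and YAP1 kept their calls in all 19 refits.

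Assembly chaperones hold subunits together while the particle forms and are no part of the finished enzyme. Of 10 such genes 5 rose and 1 fell in low iron (beside 16.8% and 22.7% of all tested genes). Leaving out any single array reduced the 5 to between 1 and 3, with 1 left without high-iron array 4 or low-iron array 2. RPN14 (YGL004C), a chaperone of the ATPase ring, read 340, 342, 334 and 345 in low iron and 298, 281, 289 and 269 in high iron, a rise with no overlap (log2 change 0.26 ± 0.0598, SE; limma adjusted p = 0.00659). IRC25, of an alpha-ring chaperone pair, rose by 0.21 (adjusted p = 0.0234), and its partner POC4 by 0.19 (0.0491). ADD66, of the other alpha-ring pair, rose by 0.20 (0.0278), whereas its partner PBA1 had a log2 change of 0.046 and did not pass. UMP1, which guides maturation of the beta ring, rose by 0.15 (0.0439). NAS2, NAS6 and HSM3 had log2 changes of 0.023, -0.056 and -0.15 and did not pass.

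TMA17 (YDL110C), a stress-induced chaperone of the ATPase ring, had the largest change of the chaperones. It read 598, 443, 393 and 447 in low iron and 714, 657, 703 and 650 in high iron. Low-iron array 1 stood above the other low-iron arrays and still below every high-iron array. The gene fell 1.46-fold (log2 change -0.55 ± 0.114, SE; limma adjusted p = 0.0035). Calls of UMP1, ADD66, IRC25 and POC4 were each lost in 5 to 10 of 19 refits, and those of TMA17 and RPN14 in none.

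Among 9 proteasome-associated proteins 4 fell and none rose (44.4% lower, beside 22.7% of all tested genes). The count was 2 without high-iron array 1, 3 or 4 or low-iron array 4. SPG5, a proteasome regulator of stationary phase, fell 1.37-fold, with 959 ± 54.9 in low and 1315 ± 32.1 in high iron (SD, n = 4; limma adjusted p = 1.41e-04). STS1, which helps to bring proteasomes into the nucleus, fell 1.34-fold from 1463 ± 103 to 1097 ± 128 (adjusted p = 0.00392). FUB1 fell by 0.26 and ECM29, a tether between core and regulatory particle, by 0.36 on the log2 scale (adjusted p = 0.0411 and 0.0433). Both calls were lost in some refits, FUB1 in 9 and ECM29 in 6 of 19. BLM10, an activator of the core, and SEM1, a small lid protein, had log2 changes of -0.0087 and -0.030 and did not pass.

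Ubiquitin is attached by activating, conjugating and ligating enzymes before the proteasome acts. Of 13 genes for ubiquitin activation and conjugation 3 rose and 3 fell, 23.1% each way, near the 16.8% and 22.7% of all tested genes. UBC11 (YOR339C), a conjugating enzyme related to the cyclin-specific enzymes of animals, read 77.4, 71.7, 106 and 94.9 in low iron and 266, 227, 216 and 233 in high iron. It fell 2.70-fold, the largest change of the 108 genes examined here (log2 change -1.43 ± 0.127, SE; limma adjusted p = 1.62e-05), and on the log2(signal + 64) scale the change was -0.99. UBC5 fell by 0.33 and UBC13, which builds chains for DNA repair, rose by 0.27 (adjusted p = 0.00118 for each). UBC4, a close relative of UBC5, had a log2 change of 0.046 and did not pass (limma adjusted p = 0.382). Its signal of 4967 to 5544 lay near the top of the range, and the part of signal level in its change was not tested.

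Of 12 ubiquitin ligase genes 3 rose and none fell (25.0% higher, beside 16.8% of all tested genes). HRD1 and HRD3, the ligase of the endoplasmic reticulum that removes misfolded proteins and its partner, rose by 0.55 and 0.30 on the log2 scale (limma adjusted p = 4.33e-04 and 0.0278), and ASR1, a RING-finger ligase, by 0.33 (0.00437). The call of HRD3 was lost in 7 of 19 refits. Of 11 genes for shuttles and the Cdc48 segregase 3 rose and 1 fell (27.3% and 9.09%, beside the same 16.8% and 22.7%). UBX2, which recruits Cdc48 to that membrane, rose, with 786 ± 89.6 in low and 584 ± 34.9 in high iron (SD, n = 4; adjusted p = 0.00284), OTU1, a deubiquitinase that binds Cdc48, rose by 0.23 (0.0118), and UFD1, a Cdc48 cofactor, fell by 0.23 (0.00494).

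Of 10 deubiquitinating enzyme genes 1 rose and 1 fell, 10.0% each way, beside 16.8% and 22.7% of all tested genes. The list is not complete, since the deubiquitinases OTU1 and RPN11 were counted in other groups. UBP8, of the SAGA transcription complex, fell 1.68-fold, with 270.4 ± 16.2 in low and 454 ± 17.9 in high iron (SD, n = 4; limma adjusted p = 1.69e-05). DOA4, which recovers ubiquitin at the endosome, rose by 0.29 (adjusted p = 0.0447), a call lost in 10 of 19 refits, and UBP2 had a log2 change of 0.22 that did not pass (0.0526). None of the 4 ubiquitin genes passed. UBI4, the stress-induced polyubiquitin gene, read 2969, 3233, 2917 and 2178 in low iron and 2227, 2503, 2652 and 2629 in high iron, with low-iron array 4 below the whole high-iron group (log2 change 0.16, adjusted p = 0.273). Without low-iron array 4 UBI4 passed, at 0.28 (adjusted p = 0.0124). RPL40A and RPL40B, which encode the same protein, had log2 changes of 0.074 and -0.055, and the signals of so similar a pair may not be fully separate.

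Over these 8 lists together 19 of 75 genes rose (25.3%) and 11 fell (14.7%), beside the 16.8% and 22.7% of all genes given above. Their median log2 change was 0.023 and their standard deviation 0.29. Their signals began at 71.7, where those of the 32 subunit genes began at 1583. The median standard error was 0.067, beside 0.046 for the subunit genes. The part of signal level in the wider spread was not tested.

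**Figure D4:**
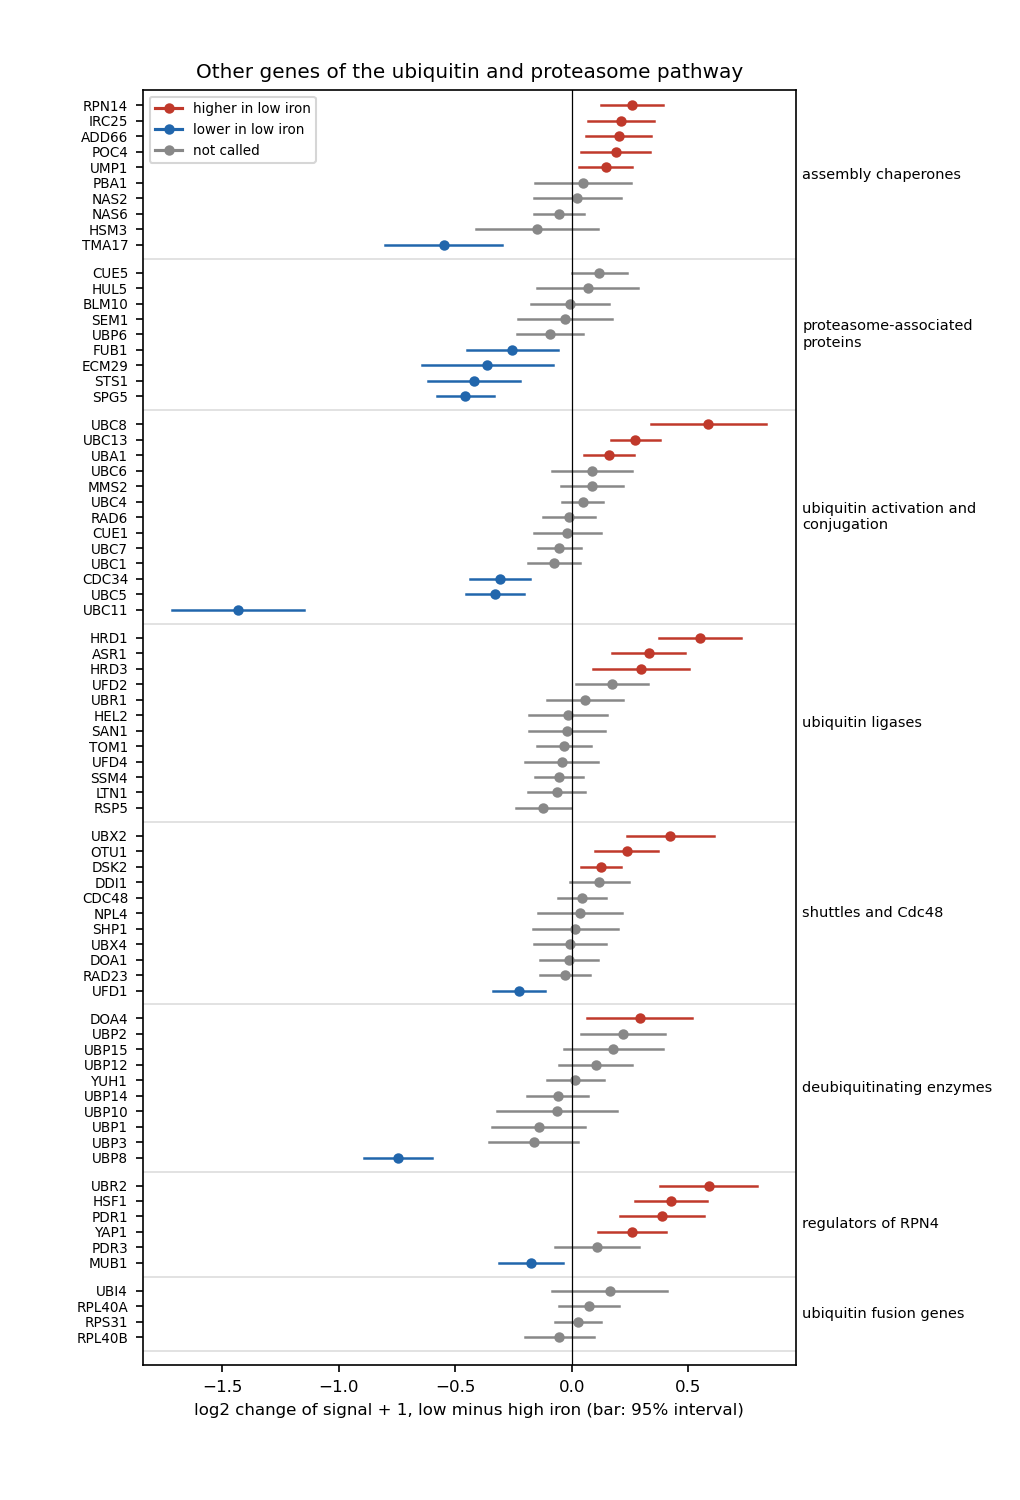
Log2 change of 75 other genes of the ubiquitin and proteasome pathway, low minus high iron, with the 95% interval from limma, by list. The changes run from -1.43 (UBC11) to 0.59 (UBR2 and UBC8), beside -0.22 to 0.24 for the 32 proteasome subunit genes, none of which is as dim as UBC11 or UBR2. The 4 ubiquitin fusion genes, with signals of 2178 to 6690, run from -0.055 to 0.16.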

How the data were processed

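The authors deposited 1 MAS5 signal intensity per probe set and array, in linear units. MAS5 comes from the submitters' processing notes, and its settings are unknown here. Log2(signal + 1) was analysed for 4 arrays per condition. The platform's gene identifiers assigned 5498 of 10928 probe sets to a single S. cerevisiae gene, and RefSeq R64 supplied names and gene order only. The brightest probe set per gene was kept. Of 5449 genes, 5412 had a mean signal above 5.48, the 95th percentile of 1746 probe sets with S. pombe gene names, and were tested. Each of the 33 members and 75 companion genes passed.

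Conditions were compared two-sided with limma 3.58.1 under R 4.3.3, using lmFit and then eBayes with an intensity trend. P-values were adjusted by Benjamini-Hochberg over all 5412 genes, with a threshold of 0.05. The code was tested on simulated data. There 36% of genes shifted by 0.25 on the log2 scale were called, 62% of those shifted by 0.5, and 0.153% of unshifted genes. The shifted genes were drawn from all tested genes, whose median standard error is larger than that of the subunit genes. A common scale for all arrays hides any change in total mRNA per cell, and their number limits precision.

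The members and lists were chosen with earlier results of these data known. By rule, every array was given for RPN4 and, per module, for the largest change each way and the 2 lowest adjusted p-values. The 3 lowest adjusted p-values per companion list and all regulators of RPN4 were named. Array values of RPT6, RPN10, PUP1, UBR2, RPN14, TMA17, UBC11 and UBI4 were added after they were seen. So were the names POC4, ADD66, PBA1, UMP1, NAS2, NAS6, HSM3, ECM29, BLM10, SEM1, UBC4 and UBC8. FET3 was added as a label check.

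The 19 refits used a pseudocount of 16 or 64, quantile normalization, centring on the median, no dim-gene filter or one at the 99th percentile, no trend, array weights, averaged probe sets, a block on the number opening each sample description (lowest 3, highest 5), each array left out, and low-iron arrays 1 and 2 left out. Several of these can hardly move a bright gene. With either pseudocount, either filter choice, no trend or averaged probe sets, the log2 change of PRE8 remained 0.18. An exact permutation test made a further alternative for single genes. Promoter sequences were not analysed here.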

Additional observations from a re-analysis of the deposited data

Results flagged for a closer look

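In 3 of the 66 groups of 4 cultures examined for the 33 genes, 1 array stood apart from the other 3 by more than Dixon's 95% critical value, where chance gives about 1 in 20. SCL1 read 2871 on high-iron array 2 against 2419 to 2478 on the other high-iron arrays. PRE3 read 2879 on high-iron array 1 against 2811 to 2818, a gap that is small beside its signal. PUP1 read 2120 on high-iron array 4 against 2281 to 2311.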

How the results depend on the processing

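No paired analysis was possible because replicate numbers were given in accession order and pair nothing. Of 660 values for the 33 genes under 20 alternatives, 602 kept direction and side of the threshold, 23 lost the call, 7 gained one and 28 changed sign. The gains of RPN2 and RPN13 came from the exact permutation test, whose p was not adjusted over genes. For 27 companion genes the counts in the same order were 490, 45, 4 and 1 of 540. None of the 29 called genes among these changed sign. The cause of the changes was not tested. Members called higher numbered 3 under quantile normalization, 1 without low-iron replicates 1 and 2, and 2 to 5 with single arrays left out. Members called lower numbered 5 under quantile normalization. Companion genes called higher numbered 11 to 19 with single arrays left out. Over the whole table, leaving out single arrays gave 1717 to 2306 calls.

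Median log2 changes under median centring were 0.085 (alpha), 0.081 (beta), 0.073 (base) and 0.022 (lid). Under quantile normalization they were 0.0060 (alpha), -0.0099 (beta), -0.0085 (base) and -0.033 (lid), and without low-iron replicates 1 and 2 0.019 (beta), -0.017 (base) and 0.0083 (lid). With single arrays left out they ran from 0.027 to 0.057 (alpha), 0.026 to 0.069 (beta), 0.021 to 0.059 (base) and -0.034 to 0.0076 (lid). Sign changes, all in genes not called, were as follows. Median centring gave 0.0075 (PRE6), 0.0096 (PRE1), 0.024 (PRE7), 0.020 (RPN3), 0.018 (RPN9) and 0.024 (RPN11). Quantile normalization gave -0.012 (PRE5), -0.019 (PRE10), -0.0099 (PUP3) and -0.039 (RPN1). Without low-iron replicates 1 and 2 the values were -0.018 (PRE5), -0.013 (PRE10), 0.019 (PRE1), 0.015 (PRE7), -0.0088 (RPT4), -0.024 (RPN1), 0.023 (RPN9) and 0.031 (RPN11). Array weights gave -0.0033 for PRE5, and the block on description numbers 0.013 for RPN3. With single arrays left out the ranges were -0.011 to 0.022 (PRE5), -0.041 to 0.00076 (PRE7), -0.070 to 0.032 (RPN3), -0.049 to 0.0061 (RPN9), -0.037 to 0.0091 (RPN11) and -0.087 to 0.013 (RPL40B).

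The number of arrays limits the precision. Leaving out low-iron replicates 1 and 2 was chosen because an earlier analysis of these data found them apart.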

Other observations

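In gene order of assembly R64, 2 pairs of these genes lie with a single gene between them. PRE4 and RPN12 flank RET2 and had log2 changes of 0.062 and 0.063, neither past the threshold. RPT4 and RPN8 flank GCD1 and had log2 changes of 0.084 and -0.21, also not past the threshold.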
